A study of Homo sapiens with 3 samples.

Results

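The libraries of EBC-1 cells given RAB11A siRNA 1 and RAB11A siRNA 2 were compared with each other, gene by gene. EBC-1 is an established human line from a squamous cell carcinoma of the lung. Cells had been electroporated with 600 pmol of siRNA at 72 h after plating, with a negative control siRNA, RAB11A siRNA 1 or RAB11A siRNA 2. Each treatment gave 1 library, so all 3 libraries come from electroporated cells. RNA 5′ ends were counted by CAGE (cap analysis of gene expression), in which each sequenced tag comes from the capped start of a transcript. Of 13479 genes listed, 10788 had a mean of at least 5 CPM (tags per gene scaled to a fixed library total) over the 3 libraries and were compared, while 2691 fell below that mean. The ratio given for each gene is log2 of (siRNA 1 CPM + 1) over (siRNA 2 CPM + 1), so a positive value means a higher level with siRNA 1. The control library entered only the mean that chose the genes, and its levels are given beside the ratios for orientation. At the edge of that choice, DLG5, ZNF616 and ZNF641 lay just outside with means of 4.99 CPM, and NUDT14, TMEM220 and TAPT1 just inside at 5.00 CPM.

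RAB11A, a small GTPase, marks the recycling endosome, the compartment that returns internalised receptors and adhesion proteins to the cell surface. An siRNA is a short duplex whose guide strand directs cleavage of a fully paired mRNA, and a guide can also lower other transcripts that pair with its seed alone, the bases near its 5′ end. Both siRNAs target coding sequence of the same mRNA, so a gene at different levels in the 2 libraries separates the libraries and not RAB11A knockdown from no knockdown. The sequences are shown as the submitters gave them, read as sense strands, because they set both the target site and the seed. Capitals mark the seed match, the bases opposite guide positions 2 to 8.
siRNA 1: gcauccagguuGAUGGAAa
siRNA 2: agcaagagcuuUUGCAGAa
The siRNA 1 sequence matched RAB11A at chr15:66169784-66169802 on the plus strand (GRCh37), within exon 2 of 5, in coding sequence. The siRNA 2 sequence crossed from exon 3 into exon 4, also coding, and had 17 bases at chr15:66170277-66170293 and the other 2 bases at chr15:66172009-66172010.

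The spacing of the deposited values put 24999950 tags in each library and 0.04 CPM on each tag, so a gene at the minimum mean rests on 125 tags per library. The sources used here do not say how the libraries came to the same total, by subsampling or otherwise. Standard errors given below treat the recovered tags as counts and cover counting error only. With 1 library per siRNA there is no replicate check, and no p-value is given. The siRNA sequence, the degree of knockdown, the electroporation, the culture and the library cannot be told apart. Of 5 epithelial markers looked up, 4 matched a symbol, and CDH1 did not. The keratins among them were well detected in both libraries: KRT8 stood at 358 and 329 CPM (ratio 0.12), KRT18 at 475 and 394 CPM (0.27) and KRT19 at 175 and 152 CPM (0.21), with siRNA 1 and siRNA 2. EPCAM was low, at 4.2, 4.28 and 3.72 CPM for control, siRNA 1 and siRNA 2, and fell below the minimum mean. Of 5 squamous markers looked up, none matched a symbol in the values used here. Of 19 markers of other cell types, 3 matched: COL1A1 and COL1A2 lay between 1.04 and 2.28 CPM in all 3 libraries, and CD68, a lysosomal glycoprotein also known as a macrophage marker, stood at 21.1 and 31.4 CPM.

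RAB11A was lower with siRNA 1 than with siRNA 2. Its level was 135 CPM in the control library, 7.48 CPM with siRNA 1 (187 tags, 95% Poisson interval 6.45 to 8.63 CPM) and 22.7 CPM with siRNA 2 (567 tags, 20.9 to 24.6 CPM). Both siRNA libraries were far below the control, and the siRNA 2 library held 3.03 times as many RAB11A tags as the siRNA 1 library. The siRNA 1 level was 33.0% of the siRNA 2 level (95% exact interval 27.8% to 39.0%), a log2 ratio of -1.48 ± 0.110 (counting SE). With a pseudocount of 5 CPM in place of 1 CPM that ratio was -1.15.

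Most genes stood at nearly the same level in both libraries. The median ratio was 0.02, the quartiles were -0.09 and 0.14, and 98.4% of genes were within 1.5-fold. The 95% counting interval of the ratio included 0 for 55.3% of genes, and the median counting SE was 0.07. At any size, 5932 genes (55.0%) were higher and 4813 (44.6%) lower with siRNA 1, and 43 genes had equal values. At least 1.5-fold, 97 genes were higher (0.899%) and 75 lower (0.695%). At least 2-fold, 18 genes were higher (0.167%) and 20 lower (0.185%). These counts take each entry singly, also entries that share all their values, such as BOLA2 and BOLA2B. With a pseudocount of 5 CPM, 41 were higher and 48 lower past 1.5-fold, and with a minimum mean of 20 CPM, 6 were higher and 5 lower past 2-fold. Among the 2029 genes whose mean reached 100 CPM, 15 were past 1.5-fold and 3 past 2-fold, namely RHEB and the pair of entries for SNORD3B-1.

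**Figure D1:**
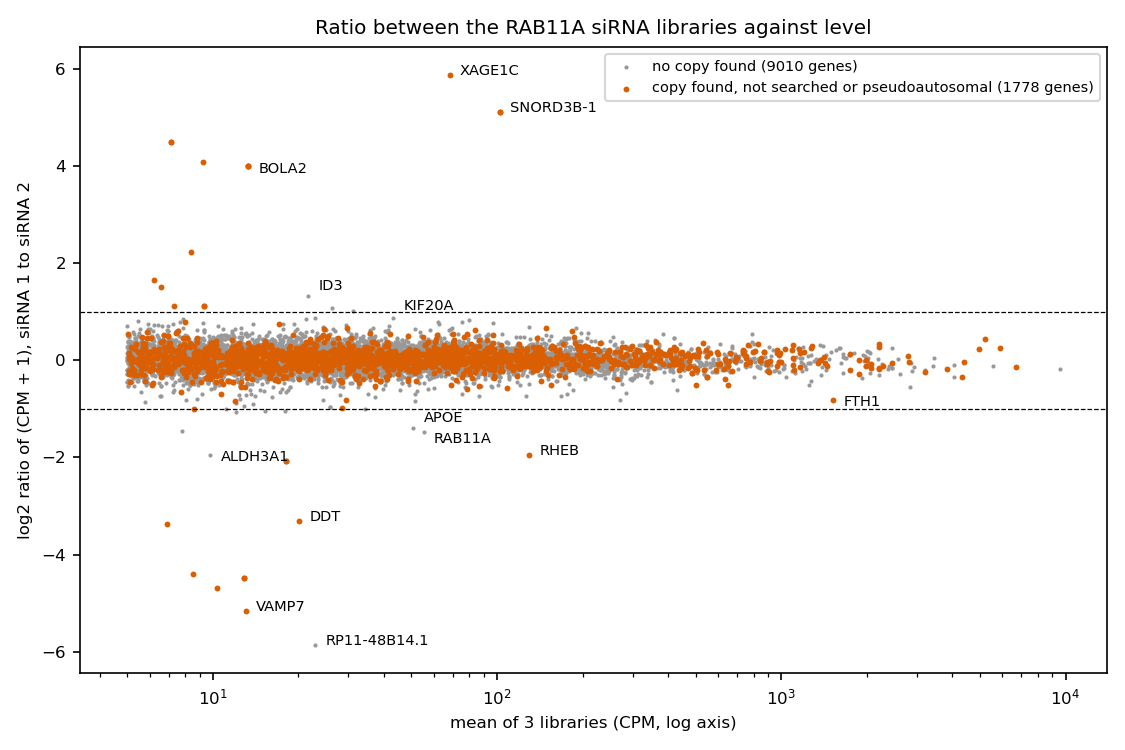
Log2 ratio of (CPM + 1), siRNA 1 to siRNA 2, against the mean CPM of the 3 libraries (log axis) for 10788 genes, each a point; dashed lines mark 2-fold. Orange points are genes whose start sequence has a near-identical copy, could not be searched or is pseudoautosomal, and they make up 16 of the 17 points past 8-fold. Some of these reached the minimum mean only through the library where they were high.

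Ratios past 2-fold were mostly at repeated loci. Of the 38 genes past 2-fold, 26 (68.4%) had a near-identical copy of an annotated start elsewhere in the genome, could not be searched for one, or were pseudoautosomal. Several of the 26 share all their values with another of them, and each was counted. The same held for 42 of the 172 genes past 1.5-fold (24.4%) and for 1778 of all 10788 genes compared (16.5%). Past 2-fold, another was a processed pseudogene, RP11-48B14.1, and the remaining 11 were protein-coding genes with no copy found and values of their own. Among 7865 such coding genes, 65 were past 1.5-fold on the higher side and 45 on the lower side with siRNA 1. For the 65 higher genes the control level lay between the 2 siRNA levels in 39, below both in 17 and above both in 9. For the 45 lower genes it lay between them in 23, above both in 20 and below both in 2. Some of the 38 genes past 2-fold, such as VAMP7 and DHRSX, reached the minimum mean only through the library where they were high. For such entries the choice of genes itself calls for a large ratio, so the share of repeated loci past 2-fold partly reflects that choice.

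Of those 11 coding genes, 3 were higher with siRNA 1. ID3, an inhibitor of DNA binding that blocks basic helix-loop-helix factors and responds to BMP signals, stood at 19.2 CPM in control, 33.1 CPM with siRNA 1 and 12.6 CPM with siRNA 2 (ratio 1.32 ± 0.090). TNFRSF11B, the secreted decoy receptor osteoprotegerin, stood at 24.8, 36.9 and 17.0 CPM in the same order (1.08 ± 0.081). MAP3K14, the kinase NIK of the noncanonical NF-kB pathway, stood at 25.7, 45.9 and 22.2 CPM (1.02 ± 0.072). In each of these genes siRNA 1 was above control and siRNA 2 was below it.

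Other genes higher with siRNA 1 included matrix, secreted and metabolic genes. COL4A1 and COL4A2, the chains of the main type IV collagen of basement membranes, lie head to head on opposite strands of chromosome 13. COL4A1 stood at 20.3, 28.4 and 15.3 CPM for control, siRNA 1 and siRNA 2 (ratio 0.85 ± 0.087), and COL4A2 at 63.2, 103 and 59.8 CPM (0.78 ± 0.046). CYP24A1, the enzyme that inactivates vitamin D hormone, stood at 53.6, 119 and 66.4 CPM (0.83 ± 0.044), lowest in control. ADM, the vasodilator peptide adrenomedullin, stood at 80.3, 132 and 77.5 CPM (0.76 ± 0.041), and APOBEC3B, a DNA cytidine deaminase, at 17.0, 33.5 and 17.9 CPM (0.87 ± 0.081). For both, siRNA 2 was close to control and siRNA 1 was above it.

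A different arrangement held for some genes of this group, where siRNA 2 was the low library. CSNK1G2, a casein kinase, stood at 80.3 CPM in control, 67.2 CPM with siRNA 1 and 38.7 CPM with siRNA 2 (ratio 0.78 ± 0.057). DUS1L, a tRNA dihydrouridine synthase, stood at 74.96, 70.6 and 41.4 CPM (0.75 ± 0.055), and GALNT10, an enzyme of mucin-type O-glycosylation, at 38.1, 31.4 and 18.6 CPM (0.73 ± 0.081). In these 3 genes both siRNA libraries were below control.

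The 8 coding genes at least 2-fold lower with siRNA 1 included RAB11A itself. APOE, a lipid carrier apolipoprotein, stood at 55.1 CPM in control, 26.2 CPM with siRNA 1 and 70.8 CPM with siRNA 2 (ratio -1.40 ± 0.064). AMIGO2, a leucine-rich repeat adhesion protein, stood at 16.6, 5.96 and 13.5 CPM (-1.06 ± 0.125), and NRP1, a co-receptor for semaphorins and VEGF, at 15.4, 5.64 and 12.4 CPM (-1.01 ± 0.128). GPNMB, a glycoprotein of melanosomes and lysosomes, stood at 16.6, 9.20 and 20.1 CPM (-1.05 ± 0.105), and MLPH, the melanophilin that links RAB27A to a myosin motor, at 21.9, 10.1 and 21.96 CPM (-1.05 ± 0.101). In all 5, siRNA 1 was the lowest of the 3 libraries, and only in APOE and GPNMB was siRNA 2 above control by over 3 CPM. ALDH3A1, an aldehyde dehydrogenase, and MMP1, the interstitial collagenase, had means under the 10 CPM set for naming and were chosen after their values were seen. ALDH3A1 stood at 11.4, 3.12 and 14.96 CPM (-1.95 ± 0.142) and MMP1 at 6.96, 3.92 and 12.6 CPM (-1.46 ± 0.139).

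Below 2-fold, genes lower with siRNA 1 included receptors and detoxifying enzymes. LRP1, an endocytic receptor that binds APOE among other ligands, stood at 17.0, 9.24 and 16.1 CPM for control, siRNA 1 and siRNA 2 (ratio -0.74 ± 0.109). EPHX1, the microsomal epoxide hydrolase, stood at 65.6, 31.8 and 57.6 CPM (-0.83 ± 0.062), and MCAM, a cell adhesion molecule, at 11.1, 8.56 and 16.6 CPM (-0.88 ± 0.111). COMMD6, a member of the COMM domain family, stood at 297, 186 and 327 CPM (-0.81 ± 0.026). It was the most abundant of the coding genes with no copy found that were at least 1.5-fold lower, apart from NUPR1 and NQO1, which are described with their lists.

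Genes of mitosis were higher with siRNA 1 as groups. Dividing cells raise the transcripts of spindle, kinetochore and cytokinesis proteins from late S phase into mitosis, so in a growing culture their bulk level also depends on the share of cells in those phases. Together the 5 mitosis lists held 110 genes compared, of which 106 were higher and 4 lower with siRNA 1, with a median ratio of 0.33. Over all genes the median was 0.02 and 55.0% were higher. Of the 110, 9 were past 1.5-fold on the higher side and 0 on the lower side, where 0.899% and 0.695% of all genes were. In bulk RNA, more cells in a phase and more RNA per cell cannot be told apart.

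**Figure D2:**
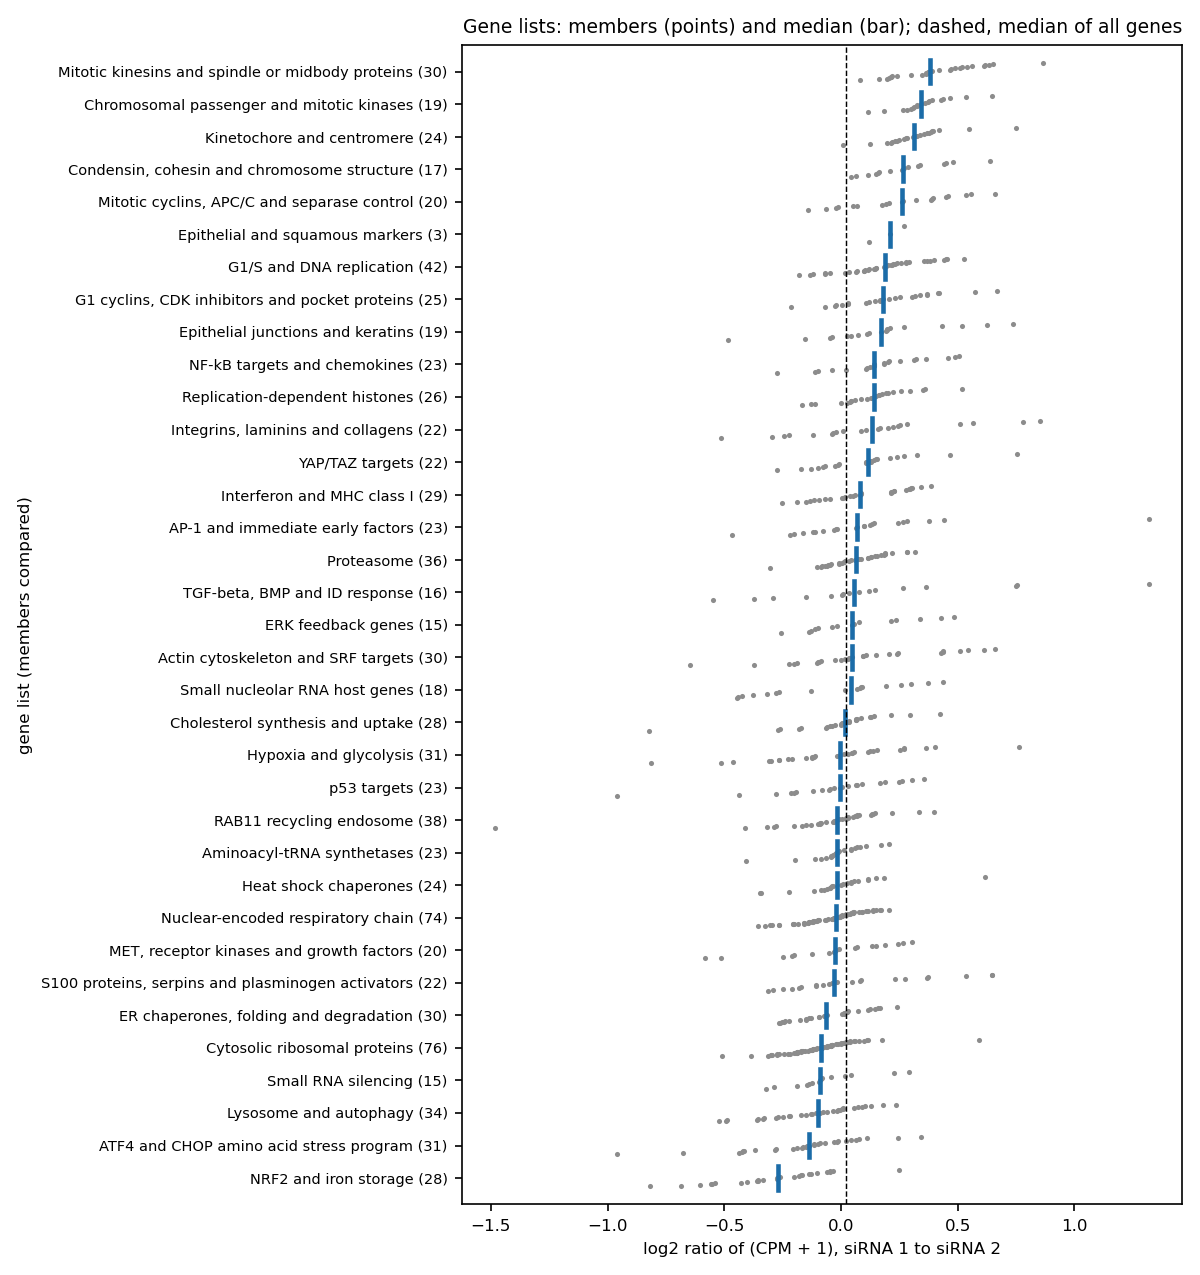
Log2 ratio of (CPM + 1), siRNA 1 to siRNA 2, for members (grey points) of 35 gene lists, with the list median (blue bar) and the number of members compared in brackets; the dashed line is the median of all genes, 0.02. The 5 mitosis lists have the highest medians, 0.26 to 0.38, and the list of NRF2 and iron genes the lowest, -0.27.

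In the list of mitotic kinesins and spindle or midbody proteins the median was 0.38, and all 30 genes were higher with siRNA 1. KIF20A, a kinesin needed for cytokinesis, stood at 32.7 CPM in control, 62.6 CPM with siRNA 1 and 33.9 CPM with siRNA 2 (ratio 0.87 ± 0.060). HMMR, a spindle protein, stood at 24.2, 34.0 and 21.6 CPM (0.64 ± 0.076), DLGAP5, a spindle assembly factor, at 32.6, 55.4 and 35.7 CPM (0.62 ± 0.061), and KIF2C, a microtubule-depolymerising kinesin, at 24.3, 30.04 and 19.3 CPM (0.61 ± 0.081). In each of the 4, siRNA 1 was the highest library and siRNA 2 lay at most 5.0 CPM from control. The lowest ratios in the list belonged to CKAP5 (0.16) and to CIT, the citron kinase (0.08). BRD8, a gene on the opposite strand whose annotated span covers the start of KIF20A, stood at 49.4 and 32.5 CPM (0.59) and was chosen after its values were seen. The deposited table lists a strand for each gene, but the sources used here do not say whether tags were counted by strand.

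The chromosomal passenger and mitotic kinase list had a median of 0.34, and its 19 genes were all higher with siRNA 1. The spindle kinase AURKA stood at 64.3, 91.1 and 62.6 CPM for control, siRNA 1 and siRNA 2 (ratio 0.53). AURKB, the passenger complex kinase, stood at 107, 179 and 129 CPM (0.47), and PLK1, a kinase of mitotic entry, at 80.2, 105 and 77.9 CPM (0.43). GTSE1, a microtubule-associated protein of G2 and S phase, had the largest ratio of the list, at 19.8, 33.7 and 21.2 CPM (0.65).

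The kinetochore and centromere list had a median of 0.31, with all 24 genes higher. CASC5, the kinetochore scaffold also named KNL1, stood at 17.9, 25.3 and 14.6 CPM for control, siRNA 1 and siRNA 2 (ratio 0.75 ± 0.090), and NDC80, the microtubule-binding subunit, at 57.4, 88.8 and 60.4 CPM (0.55). All 17 genes of the condensin, cohesin and chromosome structure list were also higher, with a median of 0.26. In that list the condensin subunit NCAPH stood at 7.68, 15.3 and 9.48 CPM (0.64), and TOP2A, the topoisomerase that untangles chromosomes, at 115, 176 and 126 CPM (0.48).

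The list of mitotic cyclins, APC/C and separase control was divided. Its median was 0.26, with 16 of 20 genes higher and 4 lower. CDC20, the activator of the anaphase-promoting complex (APC/C), stood at 133, 193 and 122 CPM for control, siRNA 1 and siRNA 2 (ratio 0.66 ± 0.033). CCNA2, cyclin A, had a ratio of 0.53 and CCNB1, cyclin B, 0.39, at 199 against 152 CPM. The 4 lower genes were the core APC/C subunits CDC27 (-0.14), ANAPC1 (-0.02) and ANAPC11 (-0.01), and the spindle checkpoint protein MAD2L1 (-0.07).

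Many promoters of the mitosis genes held the letters of a known cell cycle element. Late cell cycle genes are known for the CHR (cell cycle genes homology region), a short element bound by the DREAM complex in resting cells and by B-MYB and FOXM1 complexes in cycling cells. Promoters from RefSeq (GRCh38.p14), 250 bases before to 50 after a gene's start, matched 92 of the 110 mitosis genes and 7551 of the genes compared. The letters TTTGAA, searched on both strands and so also as TTCAAA, stood in 55 of the 92 mitosis promoters (59.8%). They stood in 615 of 7459 promoters of the other genes compared (8.25%) and in 4212 of all 27305 RefSeq promoters of the same length (15.4%). Windows of 30 bases around the match are shown for the 8 genes with a window that are named here, among them the lowest 2 of the kinesin list, 5′ to 3′ on the gene's strand, with the match in capitals, in order of falling ratio.
CDC20, chr1:43358904-43358933, plus: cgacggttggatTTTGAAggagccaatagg
GTSE1, chr22:46296832-46296861, plus: ctcggagcccttTTCAAAccgaccaatcgg
HMMR, chr5:163460598-163460627, plus: gggagatttgaaTTTGAAaccggtagggag
DLGAP5, chr14:55191677-55191706, minus: cctttcaatcaaTTCAAAtatcgcacggag
TOP2A, chr17:40418030-40418059, minus: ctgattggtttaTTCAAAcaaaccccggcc
PLK1, chr16:23678848-23678877, plus: cccagcgccgcgTTTGAAttcggggaggag
CKAP5, chr11:46846336-46846365, minus: gcccacaggcctTTCAAAtggaccaataaa
CIT, chr12:119877511-119877540, minus: gtaaccgccaatTTCAAActtccaagacct
The ratio was 0.66 for CDC20 at the top of this order and 0.08 for CIT at its end, so genes with the letters had large and small ratios. These coordinates are in GRCh38.p14, unlike the GRCh37 coordinates used elsewhere. The match in PLK1 lay 29 to 24 bases before the start, that in HMMR 22 to 17 bases before it, and that in TOP2A 151 to 146 bases before it.

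**Figure D3:**
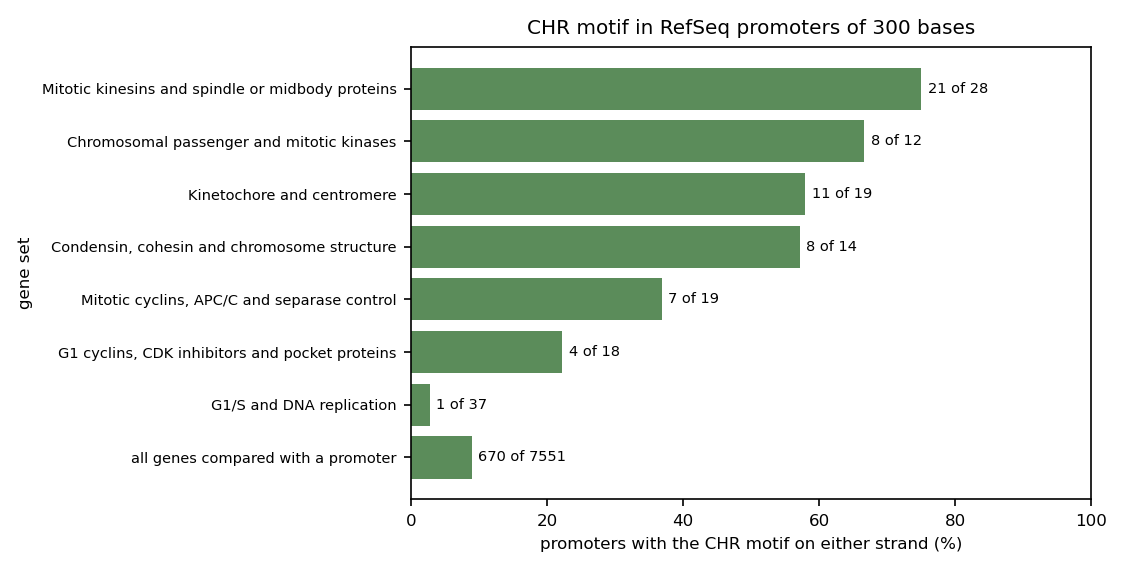
Share of RefSeq promoters of 300 bases that hold the CHR motif on either strand, in percent, by gene list; the numbers beside the bars give promoters with the motif of those matched. Among the 7 lists shown, kinesins and spindle proteins stand highest with 21 of 28, and DNA replication lowest with 1 of 37.

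Genes with the letters did not stand far from those without them outside mitosis. Within the mitosis lists the median ratio was 0.37 for the 55 genes with a match and 0.27 for those without. Among the other genes compared it was 0.04 with a match and 0.02 without. The CCAAT box, searched as CCAAT and its reverse complement ATTGG, stood in 61 of the 92 mitosis promoters (66.3%) and in 2779 of 7459 others (37.3%). A match describes the letters in a window and says nothing of which protein was bound there.

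Genes of earlier cell cycle steps had smaller ratios. In the list of G1/S and DNA replication genes 36 of 42 were higher and 6 lower with siRNA 1, with a median of 0.19. POLA1, the catalytic subunit of the priming polymerase, stood at 19.2, 32.2 and 22.04 CPM for control, siRNA 1 and siRNA 2 (ratio 0.53), and MCM2, a subunit of the replicative helicase, at 147, 217 and 160.0 CPM (0.44). The CHR letters stood in 1 of 37 promoters of this list (2.70%).

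In the list of G1 cyclins, CDK inhibitors and pocket proteins 21 of 25 genes were higher, with a median of 0.18. MYBL2, which encodes B-MYB, stood at 60.3, 90.8 and 56.7 CPM (ratio 0.67 ± 0.048), and FOXM1 at 33.5, 44.4 and 35.4 CPM (0.32). CDKN1A, the inhibitor p21, was on the other side, at 48.0, 39.4 and 46.0 CPM (-0.22). Replication-dependent histone genes, transcribed in S phase, had a median of 0.14 with 22 of 26 higher. HIST1H1B, which encodes a linker histone, stood at 907, 1821 and 1484 CPM (0.29), so both siRNA libraries were above control and siRNA 1 more so.

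NRF2 targets and iron storage genes were lower with siRNA 1. NRF2 is the transcription factor that induces antioxidant, glutathione and NADPH-producing enzymes, and it also drives the ferritin genes. Of 28 genes of this list, 27 were lower and 1 higher, with a median of -0.27 where all genes had 0.02 and 44.6% were lower. At least 1.5-fold lower were 3 of the 28, where 0.695% of all genes were. The repressor BACH1, which competes with NRF2 for its sites, was the 1 higher gene, at 27.7 against 23.2 CPM (0.25). NFE2L2, the gene of NRF2 itself, stood at 62.1 and 63.7 CPM (-0.04), and its inhibitor KEAP1 at 44.04 and 48.5 CPM (-0.14).

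Ferritin genes were near the low end of the list. FTH1, the ferritin heavy chain, stood at 2248 CPM in control, 845 CPM with siRNA 1 and 1488 CPM with siRNA 2 (ratio -0.82 ± 0.012), and it has near-identical copies elsewhere in the genome. FTL, the ferritin light chain, with no copy found, stood at 3796, 1909 and 2804 CPM (-0.55 ± 0.009). For both ferritin genes the order was control, then siRNA 2, then siRNA 1. NQO1, a quinone reductase, stood at 543, 294 and 448 CPM (-0.61 ± 0.022). IDH1, the cytosolic isocitrate dehydrogenase, which is no member of the list and was chosen after its values were seen, stood at 278, 110 and 168 CPM (-0.61 ± 0.035). TXNRD1, thioredoxin reductase, was an exception in size, at 496 and 518 CPM (-0.06).

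**Figure D4:**
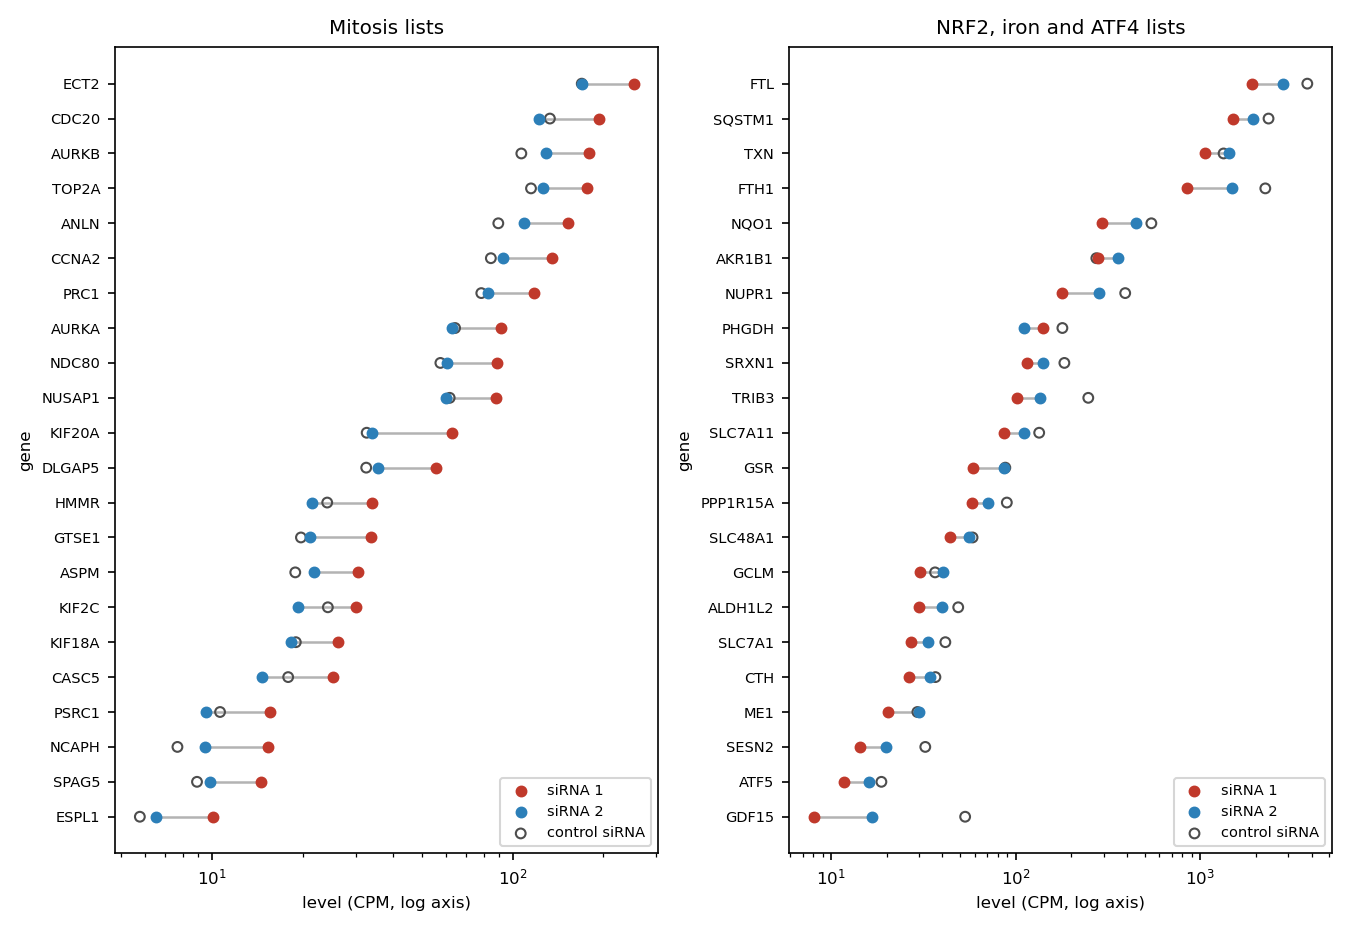
Level in CPM (log axis) with siRNA 1 (red), siRNA 2 (blue) and control siRNA (open circles) for 22 of the genes with the largest ratios in the 5 mitosis lists (left) and in the NRF2, iron and ATF4 lists (right); grey lines join the siRNA libraries. All 22 mitosis genes are higher with siRNA 1, and 21 of the 22 genes on the right are lower, the exception being PHGDH.

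The ATF4 and CHOP list, targets of the integrated stress response, also had a low median, -0.14, with 24 of 31 genes lower and 7 higher. NUPR1, a small stress-induced nuclear protein, stood at 391.6, 177 and 283 CPM for control, siRNA 1 and siRNA 2 (ratio -0.67 ± 0.028). GDF15, a stress-induced cytokine, stood at 53.2, 8.04 and 16.6 CPM (-0.96), values it shares with the overlapping MIR3189 entry. SESN2, a regulator of nutrient signalling, stood at 14.4 and 19.8 CPM (-0.43), and TRIB3, a pseudokinase, at 101 and 136 CPM (-0.42). Of the 3 serine synthesis genes, PHGDH stood at 141 and 111 CPM (0.34), PSAT1 at 119 and 113 CPM (0.08) and PSPH at 112 and 118 CPM (-0.07).

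Lysosome and autophagy genes had a median of -0.10, with 24 of 34 lower. WIPI1, an early autophagosome protein, stood at 50.7, 24.7 and 35.9 CPM for control, siRNA 1 and siRNA 2 (ratio -0.52), TPP1, a lysosomal peptidase, at 368, 190 and 267 CPM (-0.49), and SQSTM1, the autophagy receptor p62, at 2340, 1500.3 and 1920 CPM (-0.36). For all 3 the control was highest and siRNA 1 lowest. LAMP1, an abundant lysosomal membrane protein, was on the other side at 248 and 218 CPM (0.18).

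The RAB11 recycling endosome list, 38 genes with RAB11A included, was near the median of all genes. Its median was -0.02, with 17 genes higher and 21 lower. RAB11A was the 1 member past 1.5-fold, where 98.4% of all genes were within 1.5-fold. RAB11B, the close relative, stood at 124 CPM in control, 113 CPM with siRNA 1 and 97.4 CPM with siRNA 2 (ratio 0.22). Among the RAB11FIP effectors, RAB11FIP1 stood at 19.4 and 18.4 CPM (0.08), RAB11FIP2 at 24.96 and 28.2 CPM (-0.17), RAB11FIP3 at 5.00 and 5.36 CPM (-0.08) and RAB11FIP5 at 49.5 and 51.8 CPM (-0.06). EHD1, which acts in recycling tubules, stood at 64.4 and 48.6 CPM (0.40). MYO5A, a myosin motor, stood at 23.4 and 31.5 CPM (-0.41), and the cargo receptor TFRC at 69.8 and 80.4 CPM (-0.20). The members of this list thus had no shared direction.

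Adhesion and signalling lists had medians on the siRNA 1 side but divided members. Over all genes, 55.0% were higher with siRNA 1. Integrins, laminins and collagens had a median of 0.13, with 14 of 22 higher, led by COL4A1 and COL4A2, while FN1, fibronectin, stood at 8.04 and 11.9 CPM (ratio -0.52). NID1, the nidogen that links basement membrane networks, stood at 65.8 and 46.0 CPM (0.51), and THBS1, thrombospondin, at 29.3 and 19.4 CPM (0.57). The list of TGF-beta, BMP and ID response had a median of 0.06 with 11 of 16 higher. In it ID3, TGFB2 and TGFBI were at least 1.5-fold higher, as were 0.899% of all genes. SKIL, a SMAD corepressor, stood at 21.3 and 31.6 CPM (-0.55). TGFB2, a ligand, stood at 13.9, 24.8 and 14.3 CPM for control, siRNA 1 and siRNA 2 (0.75 ± 0.091).

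The NF-kB list had a median of 0.14, with 19 of 23 genes higher and none past 1.5-fold, where 98.4% of all genes were within 1.5-fold. NFKB2, the noncanonical subunit whose processing MAP3K14 controls, stood at 31.0, 45.2 and 32.0 CPM for control, siRNA 1 and siRNA 2 (ratio 0.49), and BIRC3, an inhibitor of apoptosis protein, at 23.5, 48.1 and 34.8 CPM (0.46). CXCL5, a neutrophil chemokine, was lowest in the list, at 44.6 and 54.2 CPM (-0.27). The YAP/TAZ list had a median of 0.12, with 13 of 22 higher, a share near the 55.0% of all genes. In it CYR61, of the CCN family of matrix-associated proteins, had 487 and 388 CPM (0.33), and its relative CTGF had 39.9 and 48.4 CPM (-0.27).

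Other lists were mostly closer to the median of all genes. Epithelial junctions and keratins stood further from it, with a median of 0.17 (15 of 19 higher). Of its genes 2 were at least 1.5-fold higher, where 0.899% of all genes were, among them KRT80 at 16.2 and 9.28 CPM (0.74). Interferon and MHC class I genes had 0.08 (21 of 29), AP-1 and immediate early factors 0.07 (13 of 23) and the proteasome 0.07 (25 of 36). Over all genes, 55.0% were higher and 44.6% lower. Medians were 0.05 for actin and SRF targets, 0.02 for cholesterol synthesis and 0.05 for ERK feedback genes, the last being -0.015 with a minimum mean of 20 CPM. Small nucleolar RNA host genes had 0.04, but -0.26 with identical genes counted once. Medians between -0.03 and 0.00 were found for hypoxia and glycolysis, p53 targets, aminoacyl-tRNA synthetases, heat shock chaperones, the respiratory chain, MET and receptor kinases, and the list of S100 proteins, serpins and plasminogen activators. Under other settings the medians of cholesterol synthesis, hypoxia and glycolysis, p53 targets, and MET and receptor kinases changed sign. ER chaperones had a median of -0.06. Cytosolic ribosomal proteins had -0.09 with 58 of 76 lower. Small RNA silencing genes, which load and act with siRNAs, had -0.09 with 11 of 15 lower, and DICER1 stood at 33.4 and 41.9 CPM (-0.32). The epithelial and squamous marker list had 0.21, from 3 keratins.

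Genes whose mRNA could pair with a guide's seed were compared next, since the guides of the 2 siRNAs have different seeds. A 3′ UTR (the untranslated end of an mRNA) was taken from the canonical transcript for 9598 genes and searched for the 7 bases capitalised in the siRNA sequences, with T for U. The median ratio was -0.01 for 996 genes matching siRNA 1 alone, 0.05 for 1137 genes matching siRNA 2 alone, -0.02 for 408 genes matching both and 0.03 for 7057 genes matching neither. Of these, 46.6%, 61.2%, 44.4% and 56.6% were higher with siRNA 1. Genes matching siRNA 1 alone were thus lower with siRNA 1 than genes matching siRNA 2 alone by a difference of medians of -0.06.

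The number and length of matching UTRs were also described. With 2 matches for siRNA 1 alone, 114 genes had a median of -0.07, against -0.01 for the 864 genes with 1 match. With 2 matches for siRNA 2 alone, 145 genes had a median of 0.05, the same as the 954 genes with 1 match. With 3 or more matches, 18 genes for siRNA 1 alone had a median of -0.05, a set of few genes, and 38 genes for siRNA 2 alone had 0.08. Matching UTRs were long, with median lengths of 2733.5 and 2728 bases for siRNA 1 and siRNA 2 alone, against 933 bases for genes with neither match. In the longest quartile of UTRs the medians were -0.02 for siRNA 1 alone, 0.04 for siRNA 2 alone and 0.02 for neither, and in the second shortest quartile 0.01, 0.06 and 0.04.

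Matches were also counted among the genes with large ratios. Of the genes with a UTR, 51 were at least 1.5-fold lower with siRNA 1, of which 9 (17.6%) matched siRNA 1 alone, where 10.4% of all 9598 genes did, and 4 matched siRNA 2 alone. At least 1.5-fold higher were 76, of which 5 (6.58%) matched siRNA 2 alone, where 11.8% of all did, and 5 matched siRNA 1 alone. Sites are shown for 5 named genes past 1.5-fold and lower with the siRNA whose seed they match, chosen for that, 5′ to 3′ on the mRNA strand in GRCh37, with the bases that pair with the seed in capitals.
GPNMB, siRNA 1, chr7:23314304-23314329, plus: atgaactcctGATGGAAcaataacag
MCAM, siRNA 1, chr11:119179408-119179433, minus: ggtacttaggGATGGAAaacgggcct
COMMD6, siRNA 1, chr13:76100633-76100658, minus: actaaataagGATGGAAcatttattg
COMMD6, siRNA 1, chr13:76100376-76100401, minus: acttgtactgGATGGAAcccatttta
TGFB2, siRNA 2, chr1:218616562-218616587, plus: tgccacatcaTTGCAGAagaggtatc
COL4A1, siRNA 2, chr13:110802120-110802145, minus: gcagctgcttTTGCAGAaatcacaat
GPNMB, MCAM and COMMD6 were lower with siRNA 1, and TGFB2 and COL4A1 lower with siRNA 2, while APOE, ID3, KIF20A and CSNK1G2 had no match for either seed. MCAM also held 1 match for siRNA 2, and NQO1, which was lower with siRNA 1, held 1 match for siRNA 2 and 0 for siRNA 1. Not shown are GDF15 and DICER1, with 1 match each, and MYO5A, with 2, which matched siRNA 1 alone and were lower with siRNA 1, KRT80, which matched siRNA 2 alone and was lower with siRNA 2, and EHD1, which held 1 match for siRNA 1 alone but was higher with siRNA 1 (0.40). The part of seed pairing in any of these ratios was not tested.

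**Figure D5:**
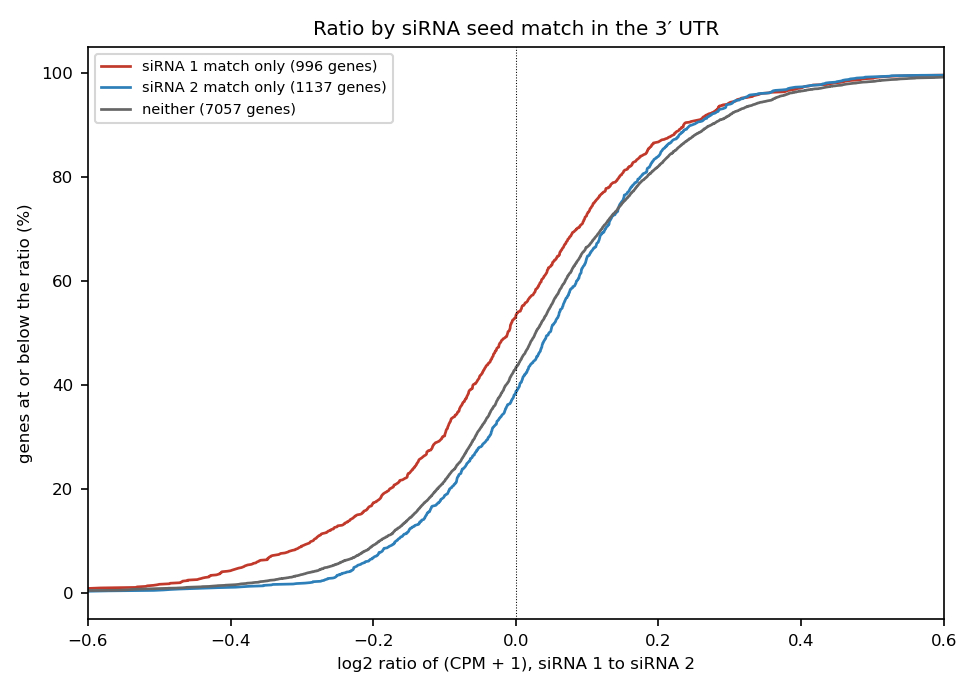
Cumulative share of genes (%) against the log2 ratio of (CPM + 1), siRNA 1 to siRNA 2, for genes whose 3′ UTR matches the seed of siRNA 1 alone (red, 996), of siRNA 2 alone (blue, 1137) or neither (grey, 7057). The red curve lies to the left, with a median of -0.01 against 0.05 for the blue curve.

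The loci with the largest ratios were listed at high levels in 1 siRNA library and near 0 in another. XAGE1C, a cancer-testis antigen gene in a repeated cluster on chromosome X, stood at 124 CPM in control, 80.4 CPM with siRNA 1 and 0.4 CPM with siRNA 2 (ratio 5.86). SNORD3B-1, a gene for the U3 small nucleolar RNA, listed under 2 identifiers with the same values, stood at 0.960, 299 and 7.64 CPM (5.12). BOLA2 and BOLA2B, copies in a duplication on chromosome 16, shared the values 20.3, 19.3 and 0.280 CPM (3.99). DHRSX and ZBED1, which overlap in the pseudoautosomal region, shared 534 tags with siRNA 1 and 0 tags in the other libraries, at least 178-fold higher with siRNA 1 than siRNA 2 against a floor of 3 tags.

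In the opposite direction, RP11-48B14.1, a processed pseudogene with no copy found by the search, stood at 0.120, 0.200 and 68.6 CPM for control, siRNA 1 and siRNA 2 (ratio -5.86). VAMP7, a vesicle SNARE gene of the other pseudoautosomal region, had 3 tags with siRNA 1 and 974 with siRNA 2, a ratio of 325 (95% exact interval 111 to 1577). DDT, which encodes a tautomerase, had 0.160, 4.72 and 55.4 CPM (-3.30). RHEB, the GTPase that activates mTORC1, stood at 87.2, 61.4 and 240 CPM (-1.95 ± 0.041), and a start of RHEB has a near-identical match on chromosome 10.

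Summing related entries did not even out these loci. The 4 U3 entries summed to 302 CPM with siRNA 1 and 46.8 CPM with siRNA 2, and LINC00152 with AC068491.1 to 13.2 and 45.7 CPM. The sources used here do not say how tags matching several places were assigned, and the part of that step in these ratios was not tested. Leaving out the genes with a copy or without a search, the counts past 2-fold were 5 higher and 10 lower, against 18 and 20. Pseudoautosomal genes stayed in these counts, among them DHRSX, ZBED1 and VAMP7.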

How the data were processed

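CAGE tags were counted in 3 libraries, 1 per siRNA. The authors deposited CPM per gene, with the gene's strand listed, and the submitters' processing notes name BWA, HISAT2 and the build hg19. The sources used here do not give their roles and versions, the annotation or the handling of tags with several matches. Of the deposited CPM values, 100.0% were whole multiples of a step that rounds to 0.04 CPM (tolerance 0.005 CPM). Tags were recovered from that step: 25174787, 25204585 and 25137457 summed over genes in control, siRNA 1 and siRNA 2, slightly above the 24999950 that the step gives. A count of 0 allows up to 0.12 CPM (3 tags), for counting error only. Among genes compared, 837 shared all values with another gene, in 406 sets.

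Ratios used a pseudocount of 1 CPM and a minimum mean of 5 CPM. Counting SEs came from Poisson variances. The first 50 bases of each start were searched against GRCh37 with minimap2 2.31 (2 or fewer mismatches elsewhere count as a copy). GENCODE identifiers matched 97.7% of genes, and RefSeq promoters 70.5% of genes compared. The members, the 36 gene lists and the motifs were chosen with earlier results of these data known, so no list is independent evidence. Genes named were RAB11A and its list, the 15 highest and 15 lowest ratios of coding genes whose mean reached 10 CPM, with no copy and values of their own, the 6 highest and 6 lowest of all genes at that mean, the 8 largest CPM differences in each direction, and in each list the 6 members farthest from 0. Further genes, among them list members with smaller ratios and loci of the repeated families, were named after their values were seen. Alternatives were pseudocounts, minimum means, TMM (edgeR 4.0.16) and median-of-ratios scaling, leaving out copies, counting identical genes once, and an exact binomial test of the recovered tags. The scripts were tested on simulated data. Python 3.11.15, scipy 1.17.1, pandas 2.3.3, numpy 2.4.6, pysam 0.24.0, samtools 1.23.1 and R 4.3.3 were used. Some genes are not reported here.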

Additional observations from a re-analysis of the deposited data

How the results depend on the processing

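The ratio of RAB11A ranged from -1.54 to -1.15, the latter with a pseudocount of 5 CPM. That pseudocount also gave 41 higher and 48 lower genes past 1.5-fold. A minimum mean of 1 CPM gave 32 lower genes past 2-fold and 132 past 1.5-fold, and no filter gave 33 past 2-fold, and 152 higher and 147 lower past 1.5-fold. A minimum mean of 20 CPM gave 6 higher and 5 lower past 2-fold, and 43 and 31 past 1.5-fold. Leaving out genes with copies or not searched, but keeping pseudoautosomal genes, gave 5 and 10 past 2-fold. The exact binomial test with Benjamini-Hochberg adjustment at 0.05 called 2312 genes higher and 1656 lower, which compares these libraries and not the conditions.

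TMM and median-of-ratios scaling moved the median of all genes from 0.02 to 0.00 and the share of higher genes from 55.0% to 51.1% and 50.1%. The list medians ran from 0.36 to 0.39 for kinesins and spindle proteins and from -0.30 to -0.24 for NRF2 and iron genes over all settings. The ERK feedback list changed sign, to -0.015 with a minimum mean of 20 CPM, and the small nucleolar RNA host list stood at -0.26 with identical genes counted once. Other medians near 0 also crossed it: hypoxia and glycolysis ran from -0.04 to 0.03 and MET and receptor kinases from -0.05 to 0.02. Those of p53 targets ran from -0.045 to 0.004 and of cholesterol synthesis from -0.004 to 0.03. The cause was not tested. Of 64 named genes past 1.5-fold, 0 changed sign under any setting. That outcome was set in advance, because pseudocounts, minimum means and leaving out genes cannot change the sign of a ratio. Scaling shifts all ratios nearly alike, and it moved the median of all genes only from 0.02 to 0.00. No paired analysis was possible because each siRNA has 1 library and the labels give no replicate numbers. Depth limits low genes: at the minimum mean a ratio rests on about 125 tags per library.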
